A study of Mus musculus with 14 samples.

Results

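The translation initiation and elongation factors of mouse lung tumors were described here at the RNA level. A gene was a member when its Ensembl identifier belonged to a protein-coding gene of GRCm38 named Eif or Eef followed by a digit, and the eIF2 kinases (Eif2ak1 to Eif2ak4) and the eIF4E-binding proteins (Eif4ebp1 to Eif4ebp3) were set aside as regulators. This gave 60 members among 52550 rows of the table. They fell into 5 genes of the Eif1 group, 11 of Eif2, 14 of Eif3, 13 of Eif4, 5 of Eif5 and Eif6, and 12 of Eef. One further gene under the rule, Eef1akmt4, was not analysed here.

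The study asked how loss of Setd2, the methyltransferase that places the H3K36me3 mark on transcribed genes, changes lung adenocarcinoma. RNA-seq was done on 6 KPY-Ctrl and 8 KPY-Setd2KO tumors. Both groups came from KPY mice, which carry Trp53 flox/flox and a Rosa26 LSL-YFP reporter, among other alleles, on a mixed B6J/129S4vJae background. Tumors were started in the airways by a lentivirus, LentiCRISPRv2Cre, that delivers Cre, Cas9 and one sgRNA, directed at Setd2 in KPY-Setd2KO tumors and at the bacterial beta-galactosidase gene in KPY-Ctrl tumors. So both groups shared the alleles of the KPY mice, with Trp53 deleted by Cre and with Cas9 in the tumor cells, and they differed in the sgRNA. According to the study's methods single tumors were dissociated and live YFP+ cells were sorted, whereas the labels speak of cell lines and of another library kit, and this difference between the sources was not resolved. The age of each animal was not given in the sources used here beyond an upper limit for the start of tumors. According to the study's methods each group came from fewer mice than tumors, so some tumors of a group shared a mouse. The mouse of each tumor was not given, so all tests treated tumors as independent, and their p-values may be too small.

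Initiation of translation begins when eIF1, eIF1A, eIF3, eIF5 and the eIF2 complex that carries the initiator tRNA bind the small ribosomal subunit, and when eIF4F (the cap-binding eIF4E, the scaffold eIF4G and the helicase eIF4A) brings the mRNA to it. After the start codon is found eIF2 leaves bound to GDP and is recharged with GTP by eIF2B, and eIF5B brings in the large subunit. Elongation then runs on eEF1A, which brings the aminoacyl-tRNA and is recharged by eEF1B, and on eEF2, which moves the ribosome along. Some genes that share these names have other roles, among them Eef2k and Eef2kmt (a kinase and a methyltransferase of eEF2), Eef1akmt1 to Eef1akmt3 (methyltransferases of eEF1A), Eef1e1 (a scaffold of the aminoacyl-tRNA synthetase complex), Eif4enif1 (a shuttle and repressor of eIF4E) and Eif1ad (a protein with an eIF1A-like domain).

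The libraries held 27866266 to 51828846 estimated counts in KPY-Ctrl tumors and 20072236 to 40604404 in KPY-Setd2KO tumors. Setd2 itself had 41.9, 53.8 and 63.6 CPM (counts scaled to the same library total) in KPY-Ctrl tumors (lowest, median, highest) and 17.9, 30.4 and 47.4 CPM in KPY-Setd2KO tumors, of which 6 lay below every KPY-Ctrl tumor and the other two inside their range. Its log2 fold change was −0.74 (SE 0.22, edgeR adjusted p = 0.175). Small insertions or deletions made by Cas9 need not lower the transcript, so this count is only a partial check of the labels. Both groups held epithelial RNA, with 18 markers such as Epcam and Nkx2-1 summing to 16797 to 79336 CPM in KPY-Ctrl and 7948 to 71818 CPM in KPY-Setd2KO tumors. They also held leukocyte RNA, although live YFP+ cells were to be sorted: the 20 leukocyte markers summed to 626 to 11829.5 CPM in KPY-Ctrl and 338 to 15339 CPM in KPY-Setd2KO tumors, none of the 20 was at 0 in every tumor, and their mean log2 CPM, used below as a score, ran from 3.12 to 8.36 and from 2.90 to 8.62. The score thus varied widely within both genotypes. The 15 macrophage markers summed to 2875 to 71268 CPM in KPY-Ctrl and 2003 to 118328 CPM in KPY-Setd2KO tumors. Their highest sum thus exceeded the highest sum of the epithelial markers. In such bulk samples fewer cells of a type and less RNA per cell cannot be told apart.

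Together the 60 members took 2.50% to 3.10% of all counts in KPY-Ctrl tumors (2.77% ± 0.196, mean ± SD, n = 6) and 2.24% to 2.93% in KPY-Setd2KO tumors (2.54% ± 0.237, n = 8). Eef1a1, which encodes the main form of eEF1A, held about as much of this as all the others: 1.16% to 1.71% of counts in KPY-Ctrl and 0.956% to 1.40% in KPY-Setd2KO tumors. Without Eef1a1 the remaining members took 1.28% to 1.40% and 1.17% to 1.53%, so the groups overlapped with and without it.

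Levels between genes are compared per exon length, as RPKM over all 14 tumors. The length is that of all annotated exons of a gene together, which can exceed that of any single transcript. It was 6488 bases for Eef1d, 6520 for Eif2b3 and 2600 for Eef1g. Their longest coding transcripts have 2842, 3754 and 1864 bases. RPKM may thus understate Eef1d and Eif2b3 most among these. Eef1a1 led with a mean of 5175 RPKM, followed by Eef2, the only gene for eEF2, with 978 RPKM. The eEF1B subunits Eef1g (337 RPKM) and Eef1b2 (332 RPKM) came next, and the third subunit gene, Eef1d, was lower at 39.7 RPKM. Among the genes named as initiation factors the highest by RPKM were Eif3h, a subunit of eIF3 (291 RPKM), Eif5a (245 RPKM), Eif1 (217 RPKM) and Eif4b, a helper of the eIF4A helicase (123 RPKM). This order depends on the length used. All exons together have 4468 bases for Eif4b, 2698 for Eif3k and 4334 for Eif4a1. Their longest coding transcripts have 3854, 909 and 1774 bases. The exchange factor eIF2B was lower, from 2.23 RPKM for Eif2b3 to 25.1 RPKM for Eif2b5, its catalytic subunit. Within pairs of closely related genes one dominated: Eif1 over Eif1b (45.4 RPKM), Eif5a over Eif5a2 (1.41 RPKM) and Eef1a1 over Eef1a2, the form of muscle and neurons, which had counts in only 1 of the 14 tumors. Eif4a1 (68.8 RPKM) and Eif4a2 (34.1 RPKM), the helicases of eIF4F, were nearer each other. Eef1a2 and Eif4e1b, an oocyte form of eIF4E at 0.0182 RPKM, were the members that did not pass the filter on low counts, which left 58 to be tested.

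**Figure D1:**
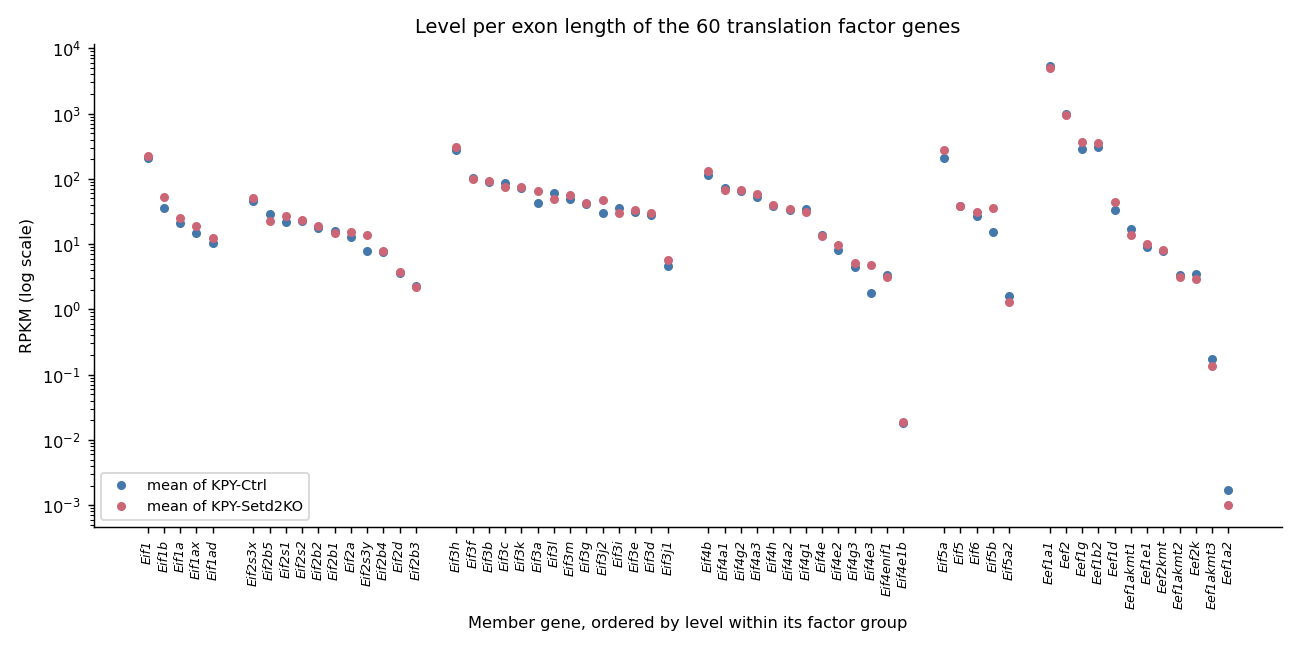
Mean RPKM of each of the 60 members in KPY-Ctrl (blue, n = 6) and KPY-Setd2KO tumors (red, n = 8) on a log scale, ordered within the factor groups; Eef1a2, at 0 in KPY-Setd2KO tumors, is drawn at the foot of the axis. Eef1a1 stands highest at a mean of 5175 RPKM, and for most members the points of both genotypes lie close together.

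Reads could be assigned with unequal certainty to these genes, because several have near-identical copies elsewhere. Of the 31-base words in the transcripts of Eif3j2, 94.9% also occurred in transcripts of another gene, and the shares were 38.4% for Eif3j1, 49.8% for Eef1a1, 47.6% for Eef1g, 35.3% for Eif2s3x, 31.1% for Eif4a1, 29.4% for Eif3h and 23.0% for Eif1. The split of reads between Eif3j1 and Eif3j2, which encode the same loosely bound eIF3 subunit, is therefore uncertain. Eif5b (0.744%) and Eif3a (0.0228%), the members on which the comparison of genotypes turned, shared almost no such words with other genes.

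The comparison of KPY-Setd2KO with KPY-Ctrl tumors asked which factors differ in RNA level when Setd2 is targeted. Eif5b had the smallest p of the members: 7 of 8 KPY-Setd2KO tumors lay above every KPY-Ctrl tumor and its fitted level was 2.37 times as high. Eif3a had the next smallest p, likewise with 7 of 8 tumors above, and the fold change of Eif4e3 was greater than that of either. With genotype alone in the model, edgeR's quasi-likelihood test called no member at an adjusted p under 0.05, as it called no gene of the 16836 tested (0% of all genes). At an unadjusted p under 0.05 there were 5 members higher (Eif5b, Eif3a, Eif4e3, Eif1ax and Eef1d) and 1 lower (Eif2b5) among 58, where 13.7% of all genes tested passed (6.93% higher, 6.8% lower). With TMM scaling the log2 fold change was above 0 in 40 of 58 members and in 8877 of the 16836 genes tested. The median was 0.080 in the members against 0.030 over all genes. Counts above 0 by factor group, given below, stand beside that same count of all genes. With library size as the only scaling the median of all genes moved by −0.14 and that of the members stood at −0.061, so the distance of the members from all genes was 0.050 with TMM scaling and 0.047 with library size. No member had genotypes whose CPM did not overlap, which 0.57% of all genes had, and 2 members, Eif5b and Eif4e3, had an absolute log2 fold change of 1 or more, against 11.6% of all genes (7.19% at 1 or more, higher).

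**Figure D2:**
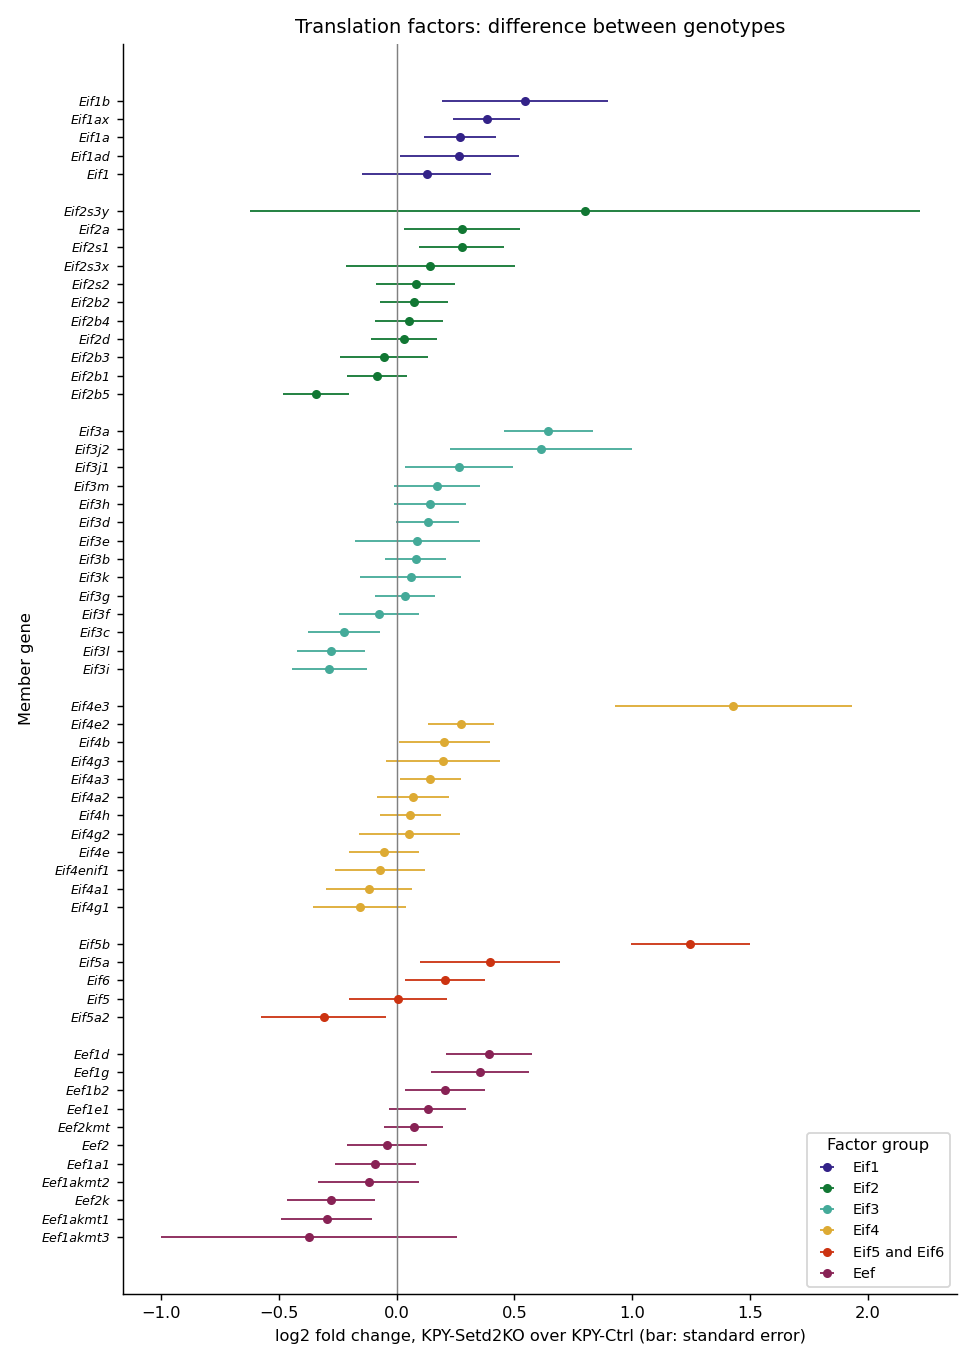
Log2 fold change of KPY-Setd2KO over KPY-Ctrl tumors for the 58 tested members, with bars of 1 standard error, ordered within factor groups by colour; the grey line marks no difference. Eif4e3, at 1.43, and Eif5b, at 1.25, lie farthest to the right, and Eif2s3y has the widest bar.

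The leukocyte-marker score entered a second model beside genotype, which lowered the common dispersion from 0.410 to 0.179. In it 2 members passed an adjusted p of 0.05, Eif5b and Eif3a, both higher in KPY-Setd2KO tumors, among 58 members, while 5.55% of all genes passed (3.15% higher, 2.39% lower), so the share of members called was not above that of all genes. Eif5b was called in all 14 fits that left out 1 tumor. Eif3a was called in 3 of them, without KPY-Setd2KO 1, 7 or 8. Without KPY-Ctrl 2, 3, 4 or 5 or KPY-Setd2KO 3, 4, 5 or 6 the count was 1, Eif5b. Without KPY-Ctrl 6 the 2 members called were Eif5b and Eif1b. Without KPY-Ctrl 1 (Eif5b, Eif4e3, Eif5a) or KPY-Setd2KO 2 (Eif5b, Eif4e3, Eif1ax) it was 3. The share of all genes called in these 14 fits is not given here, so the counts cannot be set against it. DESeq2, the tool of the study, called the same 2 genes as the model with the score on genotype alone (3.34% of all genes, 1.99% higher and 1.35% lower) and 6 with the score added (11.4% of all genes, 6.21% higher and 5.17% lower): Eif5b, Eif3a, Eif4e3, Eif4e2, Eif1ax and Eif1b, each higher. limma voom with sample quality weights called 32 members, and 49.5% of all genes (24.9% higher, 24.7% lower).

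Among the last factors to act in initiation, Eif5b (ENSMUSG00000026083.12, chr1:37998010-38055579, + strand, in GRCm38) encodes the GTPase that joins the ribosomal subunits. It had 171, 146, 127, 121, 133 and 193 CPM in KPY-Ctrl tumors 1 to 6 and 156, 256, 289, 392, 313, 377, 544 and 493 CPM in KPY-Setd2KO tumors 1 to 8. KPY-Setd2KO 1 lay inside the KPY-Ctrl range and all others above it. The means were 149 ± 28.0 CPM (SD, n = 6) and 352 ± 126 CPM (SD, n = 8), and the log2 fold change was 1.25 (SE 0.25, edgeR adjusted p = 0.116). It was 1.24 (SE 0.24, edgeR adjusted p = 0.0165) with the score in the model and 1.25 in DESeq2 (adjusted p = 0.000512). Leaving out 1 tumor at a time gave 1.13 to 1.36 on genotype alone.

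The other genes of this group did not pass in these fits. Eif5a, the factor that carries hypusine and helps both elongation and termination, had 293, 437 and 845 CPM in KPY-Ctrl and 436, 597 and 979.6 CPM in KPY-Setd2KO tumors (lowest, median, highest), and the groups overlapped over most of their range. Its log2 fold change was 0.39 (SE 0.30, edgeR adjusted p = 0.619). The related Eif5a2 had −0.31 (SE 0.27, edgeR adjusted p = 0.675), with levels of 5.09, 8.18 and 10.6 CPM and 2.87, 6.61 and 8.74 CPM. Eif5, which activates the GTPase of eIF2, had 258 ± 59.5 and 259 ± 70.2 CPM (SD, n = 6 and 8). Eif6, an anti-association factor of the large subunit, had 72.4 ± 17.8 and 83.5 ± 14.4 CPM.

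The 14 genes of eIF3, the largest initiation factor and a platform for the others on the small subunit, had both signs: 10 had a log2 fold change above 0 and 4 below, with a median of 0.084. Eif3a (ENSMUSG00000024991.7, chr19:60761117-60790658, − strand, in GRCm38), its core scaffold subunit, had 345, 458, 291, 356, 379 and 391 CPM in KPY-Ctrl tumors 1 to 6. In KPY-Setd2KO tumors 1 to 8 it had 459, 664, 802, 722, 614, 521, 372 and 472 CPM, so that KPY-Setd2KO 7 lay inside the KPY-Ctrl range and KPY-Setd2KO 1 just above its top. The log2 fold change was 0.64 (SE 0.19, edgeR adjusted p = 0.168), 0.62 with the score (SE 0.16, edgeR adjusted p = 0.0385), and 0.64 in DESeq2 (adjusted p = 0.0349).

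No other eIF3 subunit passed in these fits. Eif3l had 181, 217 and 266 CPM in KPY-Ctrl and 142, 181 and 212 CPM in KPY-Setd2KO tumors, of which 4 lay below every KPY-Ctrl tumor. Its log2 fold change was −0.28 (SE 0.14, edgeR adjusted p = 0.415). Eif3h, the highest subunit gene by RPKM, had 443 ± 84.2 and 489 ± 61.3 CPM (SD, n = 6 and 8), a log2 fold change of 0.14 (SE 0.15, edgeR adjusted p = 0.763) that went to −0.00091 with library size as the only scaling. Eif3j2 ranged from 45.6 to 122 CPM in KPY-Ctrl and from 41.4 to 196 CPM in KPY-Setd2KO tumors (log2 fold change 0.61, SE 0.39, edgeR adjusted p = 0.532), and Eif3j1, with which it shares 31-base words, had 0.27 (SE 0.23, edgeR adjusted p = 0.677).

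**Figure D3:**
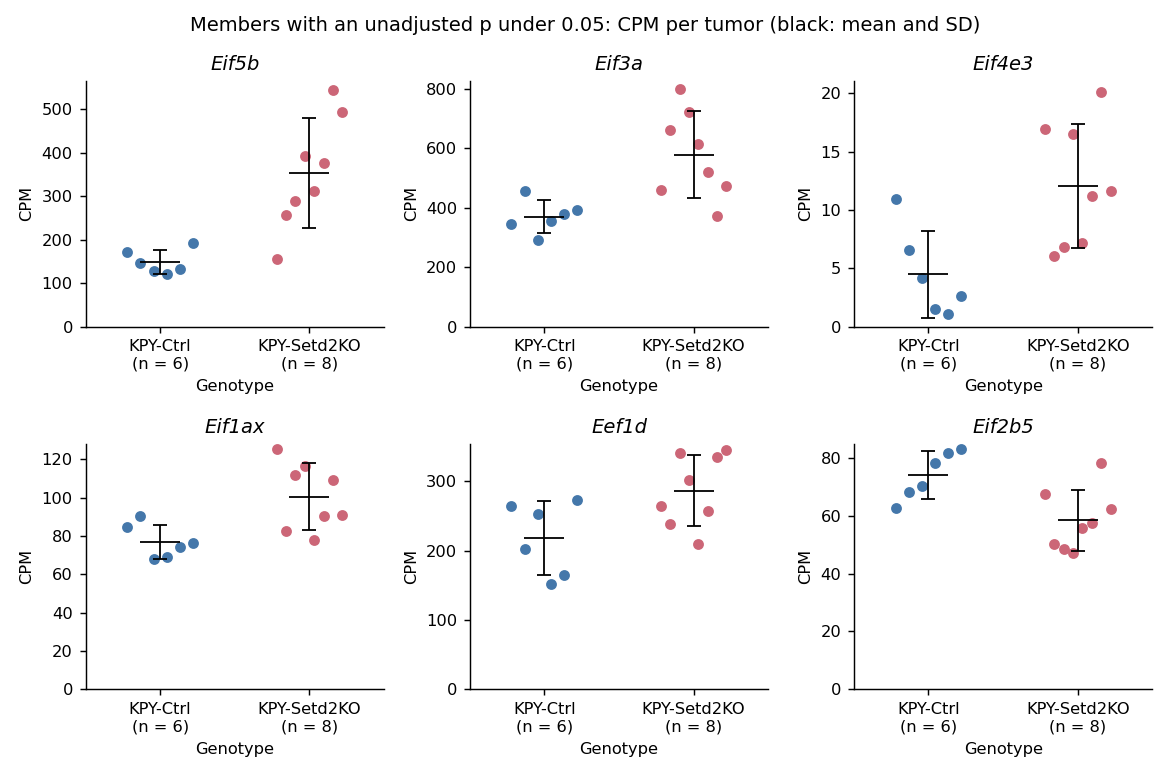
CPM (counts on the TMM-scaled library total) in each tumor for the 6 members with an unadjusted p under 0.05; points are tumors, black lines are mean and SD, and each axis starts at 0. For Eif5b and Eif3a 7 of 8 KPY-Setd2KO tumors lie above all 6 KPY-Ctrl tumors, and for Eif2b5 6 of 8 lie below them.

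Of the 13 genes of the Eif4 group, which recruits capped mRNA, 12 were tested and 8 of these had a log2 fold change above 0. Eif4e3, a less common cap-binding relative of eIF4E, was low throughout: 10.9, 6.53, 4.20, 1.48, 1.04 and 2.61 CPM in KPY-Ctrl tumors 1 to 6 and 16.9, 6.06, 6.80, 16.5, 7.14, 11.2, 20.1 and 11.6 CPM in KPY-Setd2KO tumors 1 to 8. The highest KPY-Ctrl tumor, number 1, exceeded 3 KPY-Setd2KO tumors. The log2 fold change of 1.43 (SE 0.50) was the greatest of all members, with an edgeR adjusted p of 0.236, and of 0.0645 with the score. Eif4e2, a cap-binding relative of eIF4E known for repressing mRNAs, had 50.3, 60.9 and 72.5 CPM and 61.1, 72.4 and 92.2 CPM (log2 fold change 0.27, SE 0.14, edgeR adjusted p = 0.416).

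The genes of the eIF4F complex itself lay close to 0. Eif4e had 83.9 ± 10.1 CPM in KPY-Ctrl and 80.8 ± 15.9 CPM in KPY-Setd2KO tumors (SD, n = 6 and 8). Eif4g1, the main scaffold, had 249 ± 57.1 and 223 ± 59.8 CPM. Eif4a1 had a log2 fold change of −0.12 (SE 0.18, edgeR adjusted p = 0.85) that turned to 0.014 without KPY-Ctrl 1, and Eif4a2 had 0.07 (SE 0.15, edgeR adjusted p = 0.896), which went to −0.015 without KPY-Ctrl 2 and to −0.072 with library size as the only scaling. Eif4b, the highest of the Eif4 group by RPKM, had 508 ± 86.2 and 584 ± 150.4 CPM, with a log2 fold change of 0.20 (SE 0.19, edgeR adjusted p = 0.716).

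All 5 genes of the Eif1 group, named after eIF1 and eIF1A, which keep the ribosome scanning for the start codon, had a log2 fold change above 0, with a median of 0.27, and none passed an adjusted p of 0.05 in edgeR on all 14 tumors, with or without the score. Eif1ax, the X-linked gene of eIF1A, had 67.8, 75.1 and 90.2 CPM in KPY-Ctrl and 77.8, 99.96 and 125 CPM in KPY-Setd2KO tumors, and 6 of 8 exceeded every KPY-Ctrl tumor. Its log2 fold change was 0.38 (SE 0.14, edgeR adjusted p = 0.251, and 0.063 with the score). The autosomal Eif1a had 0.27 (SE 0.15, edgeR adjusted p = 0.478), with 87.6 ± 10.7 and 106 ± 20.7 CPM. Eif1b, a paralog of Eif1, ranged from 19.8 to 67.8 CPM in KPY-Ctrl and from 25.9 to 85.7 CPM in KPY-Setd2KO tumors (log2 fold change 0.54, SE 0.35, edgeR adjusted p = 0.546). Eif1 itself had 258, 329 and 848 CPM and 317, 461 and 678 CPM, so the KPY-Ctrl range enclosed that of KPY-Setd2KO tumors.

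In the Eif2 group no gene passed on genotype in edgeR with TMM scaling or in DESeq2, with or without the score. The 4 genes for eIF2 subunits had log2 fold changes from 0.081 to 0.80 with a median of 0.21. The value of 0.80 is that of the Y-linked Eif2s3y (SE 1.42), and the next highest was 0.28, of Eif2s1. The 5 genes for eIF2B subunits ran from −0.34 to 0.073 with a median of −0.054. Eif2s1, for the alpha subunit on which the eIF2 kinases act, had 76.7, 109 and 146 CPM in KPY-Ctrl and 89.7, 129.8 and 166 CPM in KPY-Setd2KO tumors, which overlapped (log2 fold change 0.28, SE 0.18, edgeR adjusted p = 0.548). Eif2b5 had 62.6, 74.3 and 83.1 CPM and 47.2, 56.5 and 78.1 CPM, and 6 of 8 KPY-Setd2KO tumors were below every KPY-Ctrl tumor. Its log2 fold change was −0.34 (SE 0.14, edgeR adjusted p = 0.299).

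The gamma subunit of eIF2 has a gene on the X chromosome, Eif2s3x, and one on the Y chromosome, Eif2s3y. Eif2s3y had 0, 66.0, 0.0215, 30.3, 28.1 and 73.7 CPM in KPY-Ctrl tumors 1 to 6 and 111, 0.0323, 0.198, 116, 42.7, 56.1, 76.3 and 57.2 CPM in KPY-Setd2KO tumors 1 to 8. It was thus near 0 in KPY-Ctrl 1 and 3 and KPY-Setd2KO 2 and 3, the same 4 tumors in which the Y-linked genes Ddx3y, Kdm5d and Uty were low. Eif2s3x had 318, 195, 157, 127, 120 and 125 CPM in KPY-Ctrl and 223, 348, 340, 198, 106, 109, 111 and 98.3 CPM in KPY-Setd2KO tumors. It was highest in 3 of the 4 tumors that lacked Eif2s3y RNA, while KPY-Ctrl 3, with 157 CPM, was lower than 3 tumors that had it. Those 3 tumors, KPY-Ctrl 2 and KPY-Setd2KO 1 and 4, had leukocyte-marker scores of 8.13, 8.22 and 8.54, against 3.12 in KPY-Ctrl 3. KPY-Ctrl 1 and KPY-Setd2KO 2 and 3, the highest for Eif2s3x, had scores of 8.36, 8.62 and 8.35. Eif2s3x rose with the score (slope 0.23), although KPY-Ctrl 6, at 7.77, had 125 CPM. Which of these the level followed was not tested. The log2 fold changes were 0.14 for Eif2s3x (SE 0.36, edgeR adjusted p = 0.909) and 0.80 for Eif2s3y (SE 1.42, edgeR adjusted p = 0.87), and that of Eif2s3x was −0.053 with the score in the model, −0.029 with library size as the only scaling, and −0.034 and −0.025 without KPY-Setd2KO 2 and 3.

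**Figure D4:**
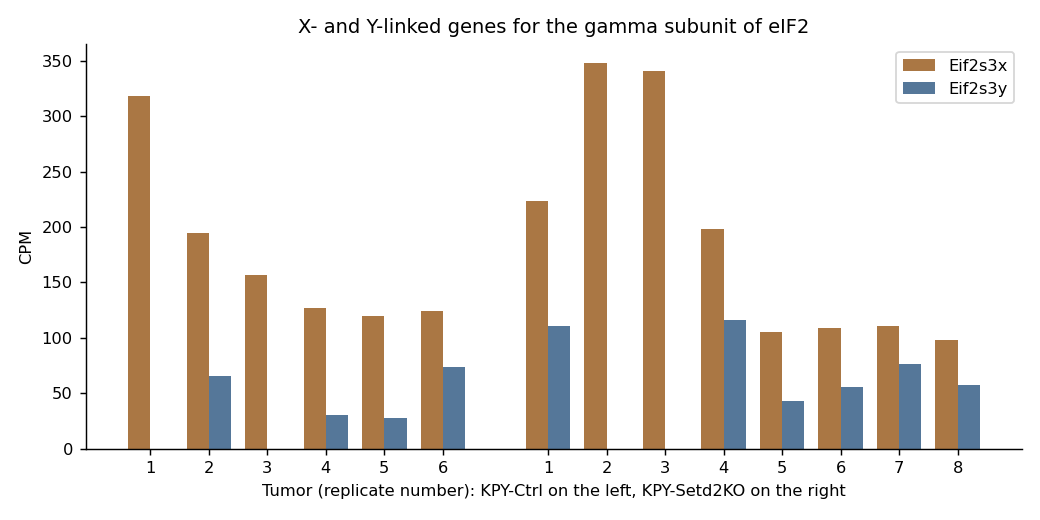
CPM of Eif2s3x (brown bars) and Eif2s3y (blue bars) in each of the 6 KPY-Ctrl and 8 KPY-Setd2KO tumors. Eif2s3y is near 0 in KPY-Ctrl 1 and 3 and in KPY-Setd2KO 2 and 3, and Eif2s3x is highest in KPY-Ctrl 1 and KPY-Setd2KO 2 and 3.

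Of the 11 tested genes of the Eef group 5 had a log2 fold change above 0, with a median of −0.041. Besides the elongation factors this count includes Eef1akmt1 to Eef1akmt3, Eef1e1, Eef2k and Eef2kmt, which have the other roles given above. Eef1a1 had 11511, 13225 and 15228 CPM in KPY-Ctrl and 9530.2, 12723 and 15372 CPM in KPY-Setd2KO tumors, which overlapped (log2 fold change −0.092, SE 0.17, edgeR adjusted p = 0.877). Eef2 had 3303 ± 344 and 3211 ± 638 CPM (SD, n = 6 and 8). The 3 subunit genes of eEF1B, the exchange factor of eEF1A, had log2 fold changes from 0.21 to 0.39. Of these Eef1d had 152, 228 and 273 CPM and 209.8, 283 and 344 CPM, with 4 of 8 KPY-Setd2KO tumors above every KPY-Ctrl tumor (0.39, SE 0.18, edgeR adjusted p = 0.363). Eef1g had 599, 699 and 996 CPM and 607, 952 and 1334 CPM (0.35, SE 0.21, edgeR adjusted p = 0.492). The 3 genes for methyltransferases of eEF1A had log2 fold changes from −0.37 to −0.12, none past the test.

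Members varied with the amount of leukocyte-marker RNA about as often as all genes did. In the model with both terms 32 of 58 members had a slope on the score with an adjusted p under 0.05 in edgeR, 25 higher and 7 lower where the score was higher, a share close to the 57% of all genes that had one (28.5% higher, 28.6% lower). With library size as the only scaling the count was 23, 8 higher and 15 lower, so the split of the members by direction changed with the scaling. The share of all genes in that fit is not given here, so this split cannot be set against it. The slopes that follow are those with TMM scaling, in which all 5 genes of the Eif1 group were among the 25 higher ones. Eif1b had a slope of 0.27 log2 units for each unit of the score (SE 0.033, edgeR adjusted p = 9.12e-06) and Eif1 had 0.17 (SE 0.038, edgeR adjusted p = 0.00147). In tumors 1, 2 and 6 of KPY-Ctrl, where the score was above 7.7, Eif1b had 67.8, 43.4 and 64.4 CPM, against 25.2, 19.8 and 22.3 CPM in tumors 3, 4 and 5. Eif5a rose with the score as well (0.22, SE 0.028, edgeR adjusted p = 1.68e-05), as did Eif3j2 (0.26) and Eif2s3x (0.23). The 7 that fell with it, named after their values were seen, were Eif4enif1 (−0.13), Eif4g1 (−0.10), Eef1akmt2 (−0.10), Eef2k (−0.093), Eif2d (−0.067), Eif2b4 (−0.067) and Eif2b1 (−0.058).

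The 3 members with the smallest p on genotype had no slope past this test. Eif5b had a slope of −0.022 (SE 0.054, edgeR adjusted p = 0.741), Eif3a one of 0.063 (SE 0.034, edgeR adjusted p = 0.131) and Eif4e3 one of 0.15 (SE 0.10, edgeR adjusted p = 0.207). These p-values do not show that the slopes are 0. The score was measured from the same libraries as the members.

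**Figure D5:**
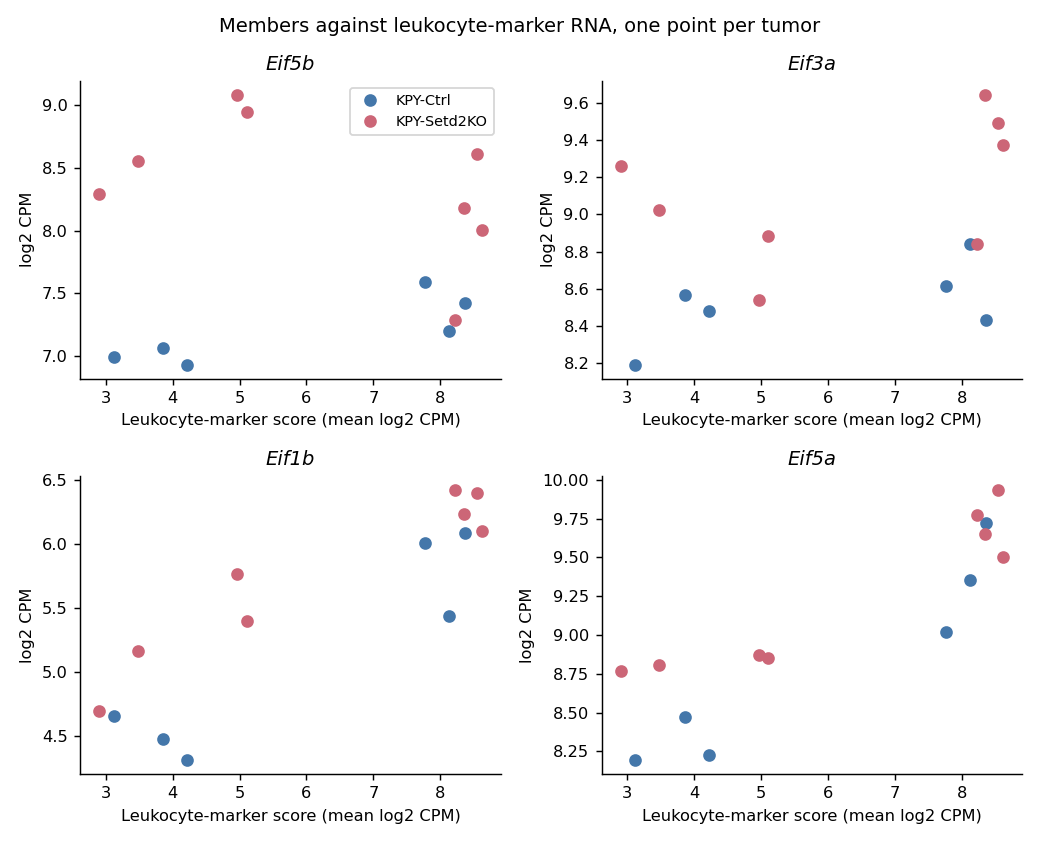
Log2 CPM of Eif5b, Eif3a, Eif1b and Eif5a against the leukocyte-marker score (mean log2 CPM of 20 markers), 1 point per tumor, KPY-Ctrl in blue and KPY-Setd2KO in red. Eif1b and Eif5a rise with the score in both genotypes (slopes 0.27 and 0.22), while for Eif5b 7 of 8 red points lie above all blue ones at low and at high scores.

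The 52 other genes of translation that were followed, regulators, termination and recycling factors, modifying enzymes and mitochondrial factors, were fitted alongside. None passed an adjusted p of 0.05 on genotype in edgeR (0% of all genes), and 3 were higher and 4 lower at an unadjusted p under 0.05, where 13.7% of all genes passed. Their median log2 fold change was 0.057. With the score in the model 2 passed, both higher (5.55% of all genes). DESeq2 called 1 on genotype alone, Gspt2 (3.34% of all genes), and 6 with the score (11.4% of all genes): Denr and Gspt2 higher, and Eif2ak4, Dph1, Dph7 and Gfm2 lower. Denr, part of a factor for re-initiation and recycling, had 41.4, 55.3 and 91.2 CPM in KPY-Ctrl and 68.6, 99.4 and 156 CPM in KPY-Setd2KO tumors, with a log2 fold change of 0.81 (SE 0.26, edgeR adjusted p = 0.202), and 0.77 with the score (edgeR adjusted p = 0.0094). Gspt2, a little-used form of the release factor eRF3, had 0, 0.127 and 0.318 CPM and 0.297, 1.43 and 3.64 CPM, with a log2 fold change of 3.54 (SE 0.76, edgeR adjusted p = 0.116), and 3.37 with the score (edgeR adjusted p = 0.0246). Gspt2 was above every KPY-Ctrl tumor in 7 of 8, and it stayed under 1 CPM in every KPY-Ctrl tumor.

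The eIF2 kinases and eIF4E-binding proteins did not pass in edgeR with TMM scaling on all 14 tumors. Of the 4 eIF2 kinase genes 2 had log2 fold changes above 0 and 2 below, and Eif2ak4, the sensor of uncharged tRNA, had 15.0, 20.6 and 24.6 CPM and 12.1, 14.6 and 19.3 CPM (−0.42, SE 0.16, edgeR adjusted p = 0.254, and 0.0592 with the score), and in DESeq2 with the score its adjusted p was 0.0183. Of the eIF4E-binding proteins Eif4ebp3 had 0, 0.913 and 3.59 CPM and 0.297, 3.44 and 8.51 CPM (1.44, SE 0.86, edgeR adjusted p = 0.499). Ddit3, a transcription factor induced after eIF2 phosphorylation, had 0.62 (SE 0.47, edgeR adjusted p = 0.62), Dph7, of the pathway that puts diphthamide on eEF2, had −0.61 (SE 0.22, edgeR adjusted p = 0.243, and 0.00935 in DESeq2 with the score), and Gfm2, a mitochondrial recycling factor, had −0.34 (SE 0.13, edgeR adjusted p = 0.248, and 0.0308 in DESeq2 with the score).

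Promoter sequences are shown for the members with the smallest p on genotype for which one was at hand (Eif5b, Eif3a, Eif1ax, Eif2b5) and for Eef2 and Eif4g1, which hold a CACGTG word. Each line is RefSeq sequence of GRCm38.p6 from 80 bases before to 20 after the annotated start, read on the strand of the gene, with matches to the words searched in capitals.
Eif5b, chr1:37997930-37998029 (+ strand): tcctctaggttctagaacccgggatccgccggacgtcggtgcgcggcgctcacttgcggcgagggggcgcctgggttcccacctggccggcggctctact
Eif3a, chr19:60790674-60790773 (− strand): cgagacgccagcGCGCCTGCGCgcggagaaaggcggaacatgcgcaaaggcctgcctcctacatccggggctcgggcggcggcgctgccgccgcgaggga
Eif1ax, chrX:159372098-159372197 (+ strand): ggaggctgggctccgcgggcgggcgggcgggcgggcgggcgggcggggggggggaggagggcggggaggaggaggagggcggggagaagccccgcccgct
Eif2b5, chr16:20498737-20498836 (+ strand): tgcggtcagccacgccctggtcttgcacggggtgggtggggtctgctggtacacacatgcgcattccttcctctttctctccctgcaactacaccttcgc
Eef2, chr10:81176551-81176650 (+ strand): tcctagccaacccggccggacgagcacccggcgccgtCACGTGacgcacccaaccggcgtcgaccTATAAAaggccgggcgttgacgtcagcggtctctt
Eif4g1, chr16:20672647-20672746 (+ strand): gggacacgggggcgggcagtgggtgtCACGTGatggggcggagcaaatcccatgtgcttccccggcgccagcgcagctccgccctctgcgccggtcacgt
The window of Eif5b held none of the words searched, nor did its 300-base window, that of Eif3a held an NRF1-type word, and that of Eef2 held CACGTG and TATAAA.

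These words were searched on both strands in the 300-base window from 250 before to 50 after the start, which RefSeq gave for 46 of the 60 members and for 27025 genes in all. CACGTG, the E-box that Myc and related factors read, was in 12 member windows (26.1%) and in 8.09% of all windows. CCGGAAG, an ETS core, was in 15 (32.6%, against 9.93%), the NRF1-type word (GCGCA and GCGC with any base between them) in 8 (17.4%, against 5.19%) and AAGATGGC, a YY1-type word, in 6 (13%, against 3.19%). CCAAT was in 14 (30.4%, against 41.1%) and TATAAA in 5 (10.9%, against 15.7%). CCGGAAG ends with the letters with which AAGATGGC begins, so these can overlap. In its longer window Eif3a held CACGTG and the NRF1-type word. These are matches of letters in genes of all kinds, not binding sites, and no base composition was matched between the members and the other genes.

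Transcript composition was read from the annotation. The median GC content of the tested members was 49.98% and that of all tested genes with a protein-coding transcript was 50.05%. Across members the log2 fold change and GC content had a Pearson r of −0.24 (n = 58 genes), and across all genes it was −0.025 (n = 13835 genes). The r with log transcript length was 0.11 across members and −0.11 across all genes. Eif5b, with 7797 bases, and Eif3a, with 5125 bases, ranked 3 and 8 of the 60 members from the longest. Their GC content, 43.73% and 44.51%, ranked 16 and 20 from the lowest. Genes are not independent replicates, and they share the libraries, so these are descriptions.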

How the data were processed

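The 6 KPY-Ctrl and 8 KPY-Setd2KO tumors were sequenced as 75-bp single-end reads. The table the authors deposited holds expected counts for each gene, from Salmon 0.8.2 with GRCm38.p5. How transcripts were summed to genes is not given in the sources used here. Of 52550 rows, 52403 were matched to genes of GENCODE vM21. Counts were rounded to whole numbers. The fits used R 4.3.3, with edgeR 4.0.16 (filterByExpr, TMM scaling, robust quasi-likelihood test, two-sided, Benjamini-Hochberg over all 16836 genes tested) on all 14 tumors. CPM used TMM-scaled totals, and log2 CPM a prior count of 2. A second model added the mean log2 CPM of 20 leukocyte markers. Alternatives were DESeq2 1.42.0, limma 3.58.1 (voom with sample quality weights), other scalings, filters and covariates, a replicate block, and leaving out each tumor.

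Named genes were Setd2 and, in each factor group, the 2 members with the smallest p, the 1 with the greatest absolute log2 fold change, the 1 with the highest RPKM, pairs of related genes, members called with or without the score, and the gene with the smallest p in each list of other translation genes; other members are named for level only, unless stated. The members, lists and tests were chosen with earlier results of these data known. Total counts of 20072236 to 51828846 per library give little counting error for most members. No tumors were alike enough to be 1 library deposited again: the lowest chi-square per degree of freedom between tumors of a group was 21.2. One allele of the KPY mice is not reported here.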

Additional observations from a re-analysis of the deposited data

Results flagged for a closer look

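In 66 sets of values, each a named gene in 1 genotype, 2 had a tumor set far apart by Dixon's criterion, which chance alone gives in about 1 of 20 sets. Members outside the named genes were not examined in this way. Eef1a2 in KPY-Ctrl 3 stood at a log2 CPM of −3.71, with the other KPY-Ctrl tumors at −4.19, which is the value of a count of 0 there, so the difference is a CPM of 0.0215. Eif4ebp3 in KPY-Setd2KO 1 stood at a log2 CPM of −1.51, with the other KPY-Setd2KO tumors from 1.16 to 3.10.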

How the results depend on the processing

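The count of members called on genotype was 0 in edgeR under other scalings, other filters, the Y-linked gene score as covariate and all 14 fits without 1 tumor. It was 2 with DESeq2, 2 with the leukocyte-marker score, 6 with both, and 32 (27 higher, 5 lower) with limma voom and sample quality weights, under which 49.5% of all genes passed. The median log2 fold change of the members, 0.080, was 0.30 with voom and −0.061 with library size as the only scaling, and 0.055 to 0.14 without 1 tumor (lowest without KPY-Ctrl 5, highest without KPY-Ctrl 1). With the score in the model the count of 2 became 1 with macrophage markers as the score (Eif5b) and 3 with library size only (Eif5b higher, Eif2b5 and Eif3i lower), and was 1 to 3 without 1 tumor. For these alternatives to the score fit the share of all genes called is not given here, so the counts cannot be set against it. The count of 32 slopes on the score was 25 to 33 without 1 tumor, and the share of all genes in those fits is not given here. The other translation genes went from 0 called to 1 with DESeq2, 2 with the score, 6 with both (2 higher, 4 lower), and 21 higher and 6 lower with voom. Setd2, at −0.74, was −0.75 with voom (limma adjusted p = 0.00501), −0.84 with the score (edgeR adjusted p = 0.026) and −0.84 with DESeq2 and the score (adjusted p = 0.00318), and −0.85 to −0.66 without 1 tumor. The cause of these differences was not tested.

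Of 24 named members, 18 kept their sign in every alternative. Eef1a1 was 0.11 and Eif4a1 0.23 with voom, Eif2s3y was −1.03 with voom, Eif3h was −0.00091 and Eif4a2 −0.072 with library size only. Eif2s3x was −0.029 with library size only, −0.053 with the score in edgeR and −0.054 in DESeq2, and −0.034 to 0.41 without 1 tumor. Without 1 tumor Eif4a1 was −0.19 to 0.014 and Eif4a2 −0.015 to 0.15.

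Replicate numbers did not pair the tumors: deviations of same-numbered tumors correlated at 0.52, 0.60, −0.48, −0.66, 0.66 and −0.36 for numbers 1 to 6. With the replicate number as a block no member was called, the median log2 fold change was 0.11, and Eif5b stood at 0.97 (edgeR adjusted p = 0.435). Numbers 7 and 8 occur only in KPY-Setd2KO, so in that fit these tumors add nothing to the genotype term. They had the highest Eif5b, at 544 and 493 CPM.

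The members Eif4e1b and Eef1a2 had too few counts in these libraries to be tested.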
